A study of Mus musculus with 21 samples.

Results

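The contractile genes of visceral smooth muscle were examined in the colon of germ-free (GF) mice. The group holds 10 genes (Acta2, Actg2, Myh11, Mylk, Tagln, Cnn1, Smtn, Lmod1, Des and Synpo2), each read by the brightest of the array probes assigned to it, out of 25744 genes with a symbol and a tested probe on either of 2 days. All 10 were on the arrays of both days, and all 25 of their probes at day 0 and all 14 at day 7 passed the detection filter. Total RNA of whole colon tissue from GF C57BL/6J mice was hybridised to single-colour Agilent arrays. At day 0, before any dextran sodium sulfate (DSS, a polymer that injures the colonic epithelium), there were 7 arrays labelled GF Card9-/- and 6 labelled GF WT. At day 7, after 7 days of 2% DSS in the drinking water, there were 4 of each, and these were hybridised to another array design, so levels were not compared between days. Card9 is an adaptor of myeloid cells that signals downstream of receptors for fungal molecules. Both genotypes were kept without any microbiota. The methods give an age and a sex (male) only for GF mice that were inoculated with microbes, and not for the uninoculated mice of these arrays. Nothing in the labels says whether replicates 2 and 2.1 of GF Card9-/- at day 7 came from separate mice.

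Whole colon holds the mucosa and, beneath it, the circular and longitudinal muscle layers that propel the contents. In the muscle cell, thick filaments of myosin pull on thin filaments of actin. The kinase encoded by Mylk starts contraction by phosphorylating the myosin light chain when calcium rises. Actin-binding proteins tune the thin filament, and intermediate filaments with dense bodies carry the force across the cell. These genes are controlled together by serum response factor and its partner myocardin through a DNA element called the CArG box, and they are used as markers of differentiated smooth muscle.

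The RefSeq table of promoters (GRCm38.p6) held 7 of the 10 genes, all but Actg2, Myh11 and Tagln. The CArG box was found in the 250 bases before the start of none of these 7, against 1.47% of all 32851 promoters. When 1 base other than A or T was allowed in its core, 1 of the 7 held it, Acta2, against 8.59% of all promoters. The element reads the same way on both strands, so 1 search covered both. The stretch of Acta2, the actin isoform of vascular and visceral muscle, is shown because it carries both matches, in capitals, which begin 84 and 34 bases before the start (GRCm38.p6, chr19:34255374-34255477, minus strand, 104 bases):

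Acta2: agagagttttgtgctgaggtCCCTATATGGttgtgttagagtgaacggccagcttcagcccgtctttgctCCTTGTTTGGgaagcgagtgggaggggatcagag

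The probes were 60 bases long and lay, on the mm9 build of the files, at chr19:34316060-34316119 for Acta2, chr6:83472853-83473179 for Actg2, chr16:14195223-14198147 for Myh11, chr16:34996839-34996898 for Mylk, chr9:45738097-45738156 for Tagln, chr9:21913058-21913117 for Cnn1, chr11:3417530-3417589 for Smtn, chr1:137264581-137264640 for Lmod1, chr1:75363404-75363629 for Des and chr3:122779459-122779518 for Synpo2. Those of Actg2, Myh11 and Des covered a stretch longer than the probe, as a probe across an exon junction does. At day 7 the same probes were used except for Actg2, Myh11 and Mylk. The sequences below are of Myh11 and Mylk probes. The first is the Myh11 probe found on both designs (chr16:14202190-14202249, minus strand). It gave the values of day 7 and the comparison between days, while those of day 0 came from the probe at chr16:14195223-14198147. The second is the Mylk probe used at day 0, which followed the other genes (plus strand). The third is the first 30 bases of a Mylk probe that did not follow them (chr16:34953958-34954017, plus strand):

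Myh11 probe: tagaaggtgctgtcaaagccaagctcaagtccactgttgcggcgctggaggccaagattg

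Mylk probe, following: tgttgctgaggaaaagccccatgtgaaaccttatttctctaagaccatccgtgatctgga

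Mylk probe, not following: gcaagagaattgcaagatcaaggccagccc

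The targeted gene was checked first. Card9 did not follow the labels: at day 0 its log2 signal was 8.71 to 9.24 in the arrays labelled GF Card9-/- and 2.30 to 2.33 in those labelled GF WT, without overlap. At day 7 it was 7.93 to 8.57 in the arrays labelled GF Card9-/- and 2.38 to 2.41 in GF WT replicates 4, 5 and 6, but 7.85 in GF WT replicate 1, near the level of the other label. The place of that 1 array in the comparisons between labels at day 7 is thus in doubt, and the difference of the 10 genes is given below also without it. The arrays are therefore called by their labels, and every sign below is that of labelled GF Card9-/- minus labelled GF WT. If the labels were exchanged, each of these signs would turn. The part of the gene that the deletion removes was not given in the sources used here. Between 51.8% and 61.8% of spots were well above background at day 0 and between 40.2% and 54.5% at day 7, and no probe of the 10 genes was saturated. Precision is limited by how many arrays there were.

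The main feature of the 10 genes was that they rose and fell together from array to array, also within each genotype. At day 0 their signals spanned from 8.18-fold (Tagln) to 16.4-fold (Synpo2) over 13 arrays. At day 7 they spanned from 4.24-fold (Mylk) to 9.93-fold (Myh11) over 8 arrays. The mean of the 10 genes, each centred on its own mean over the arrays of the day, ran from -2.10 in GF Card9-/- replicate 5 to 1.49 in GF Card9-/- replicate 1 at day 0, a 12-fold range with both ends in the same genotype. In such bulk samples, fewer muscle cells and less RNA of these genes per cell cannot be told apart. The share of spots well above background moved with this mean at day 0 (Pearson's r 0.909, rho 0.868, 13 arrays) and less so at day 7 (r 0.272, rho 0.0359, 8 arrays), and its part in the pattern was not tested.

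Myh11, the smooth muscle myosin heavy chain, shows the pattern. At day 0 its log2 signal was 10.78 at the lowest, 12.99 at the median and 14.60 at the highest in the 7 arrays labelled GF Card9-/-, and 11.65, 13.48 and 14.60 in the 6 labelled GF WT. The groups overlapped almost entirely. At day 7 it was 12.26, 11.11, 12.85 and 13.01 in GF Card9-/- replicates 2, 2.1, 4 and 6, and 11.67, 13.13, 14.42 and 12.90 in GF WT replicates 1, 4, 5 and 6. Replicate 2.1 of GF Card9-/- and replicate 1 of GF WT were low and replicate 5 of GF WT was high.

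Actg2, the actin isoform of enteric muscle, had the same arrays at its ends. At day 0 it ran from 12.68 through a median of 14.49 to 16.06 in GF Card9-/-, and from 13.58 through 15.07 to 15.81 in GF WT. At day 7, by another probe, it was 15.44, 14.38, 16.77 and 16.18 in GF Card9-/- and 14.89, 16.43, 16.78 and 16.33 in GF WT. Acta2 ran from 13.83 through 15.91 to 17.42 in GF Card9-/- and from 14.84 through 16.85 to 17.35 in GF WT at day 0. For both actins the lowest array of day 0 was GF Card9-/- replicate 5 and the highest GF Card9-/- replicate 1.

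Synpo2, an actin-bundling protein of the dense bodies also called myopodin, was 8.94, 11.30 and 12.98 (lowest, median and highest) in GF Card9-/- and 10.47, 11.73 and 12.46 in GF WT at day 0. At day 7 it was 10.42, 9.90, 12.05 and 11.60 in GF Card9-/- and 9.50, 11.72, 11.54 and 11.62 in GF WT. Its lowest array at day 7 was thus GF WT replicate 1, whereas for Myh11 it was GF Card9-/- replicate 2.1. Lmod1, the leiomodin that nucleates actin filaments in smooth muscle, had the dimmest probe, well above background on 11 of 13 arrays at day 0 and 7 of 8 at day 7. It ran from 4.31 to 8.17 in GF Card9-/- and from 4.796 to 7.50 in GF WT at day 0, and from 5.72 to 7.55 and from 4.78 to 7.35 at day 7.

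The remaining 5 genes spanned like ranges. At day 0 Tagln ran from 15.07 to 18.10 in GF Card9-/- and from 15.56 to 17.97 in GF WT, and Cnn1 from 14.59 to 17.97 and from 15.18 to 17.75. Smtn ran from 11.84 to 15.27 and from 12.67 to 15.09, Des from 10.59 to 14.52 and from 11.48 to 14.27, and Mylk from 12.17 to 15.59 and from 13.41 to 15.25. In each, the range of GF Card9-/- reached both lower and higher than that of GF WT. At day 7 Des was 11.94, 10.89, 12.42 and 12.79 in GF Card9-/- replicates 2, 2.1, 4 and 6 and 10.77, 12.70, 13.94 and 12.76 in GF WT replicates 1, 4, 5 and 6, with replicate 1 of GF WT lowest and replicate 5 of GF WT highest. For Cnn1 and Mylk the highest array of day 7 was instead GF Card9-/- replicate 4, at 17.19 and 12.45.

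**Figure D1:**
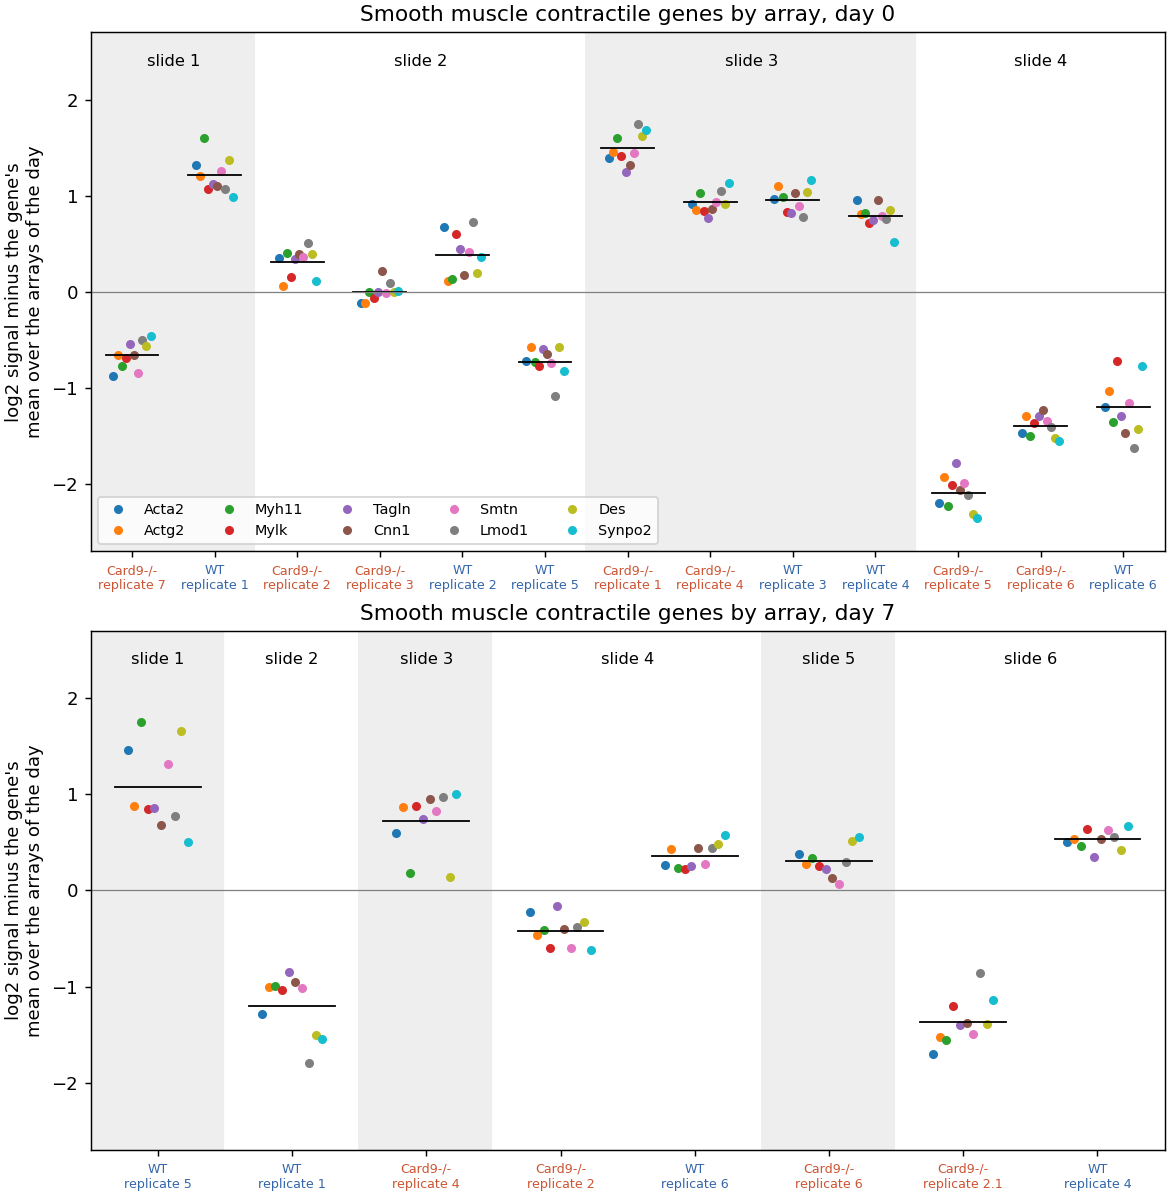
Each point is 1 gene on 1 array, as log2 signal minus that gene's mean over the arrays of the day (vertical axis), with arrays along the horizontal axis grouped by slide, orange names for arrays labelled Card9-/-, blue for WT, and a black line at the mean of the 10 genes. At day 0 the points of slide 3 lie at 0.52 or higher and those of slide 4 at -0.72 or lower, and at day 7 the points of GF WT replicate 1 and GF Card9-/- replicate 2.1 lie lowest.

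The direction of an array held for nearly every gene. At day 0, 12 of 13 arrays had all 10 genes on the same side of their own means, and the remaining one, GF Card9-/- replicate 3, had 5 above and 5 below, with values from -0.12 to 0.22. At day 7 this was so in 8 of 8 arrays. Over the 45 pairs of genes, Pearson's r had a median of 0.984 (range 0.958 to 0.996) over 13 arrays at day 0 and of 0.936 (range 0.780 to 0.994) over 8 arrays at day 7. These are descriptions, since the genes were measured on the same arrays and scaled together. After the genotype means were removed the median was 0.988 and 0.942. Within the arrays labelled GF Card9-/- at day 0 it was 0.995 (7 arrays), within GF WT 0.976 (6 arrays), and within the 2 scan sessions 0.969 (6 arrays) and 0.993 (7 arrays).

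Subtracting the mean of the other 9 genes from each gene shrank its spread. At day 0 the SD over arrays fell from between 1.004 and 1.23 to between 0.081 (Smtn, smoothelin, a marker of fully contractile cells) and 0.256 (Lmod1), which left 0.545% to 4.64% of the variance. At day 7 it fell from between 0.779 and 1.05 to between 0.150 (Actg2) and 0.389 (Myh11), which left 2.82% to 15.4%. The slope of a gene on the mean of the others ran from 0.881 (Tagln, the actin-binding protein transgelin) to 1.10 (Myh11) at day 0 and from 0.834 (Tagln) to 1.15 (Acta2) at day 7. What remained at day 7 was largest for Myh11, Des, the muscle intermediate filament desmin, Lmod1 and Synpo2. In GF WT replicate 5, Myh11 and Des lay 1.75 and 1.66 above their means and Synpo2 0.50 above.

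**Figure D2:**
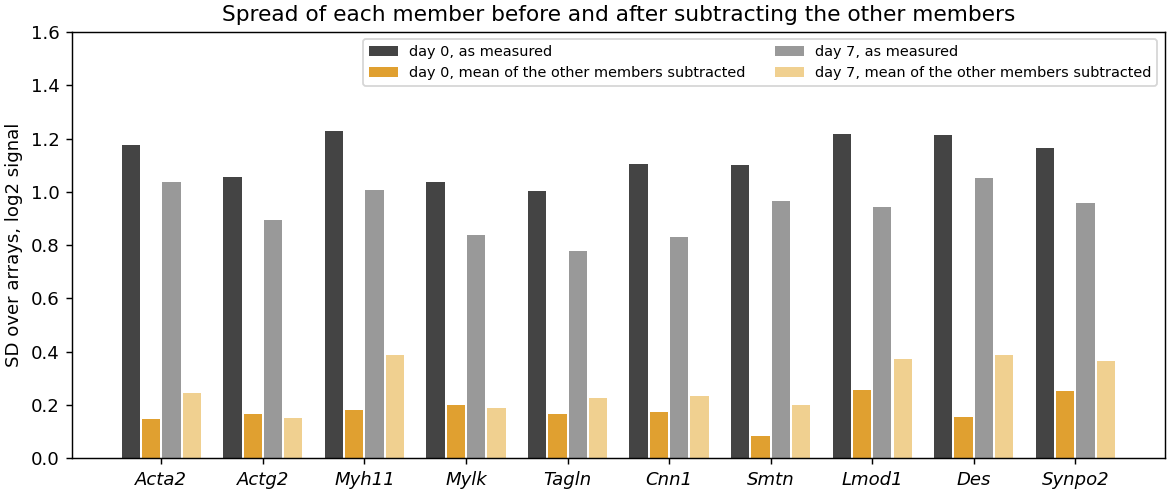
Bars give, for each gene, the SD of its log2 signal over the 13 arrays of day 0 (dark) and the 8 arrays of day 7 (grey), and the SD after the mean of the other 9 genes was subtracted on each array (orange and pale orange). Every orange bar is lower than its neighbour, with the tallest of the pale ones at 0.389 for Myh11.

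Different probes of a gene mostly moved together. At day 0 the 3 other Myh11 probes correlated with the brightest at 0.948 to 0.991, and those of Cnn1, the thin-filament protein calponin, and of Smtn at 0.994 and 0.997. Among the Acta2 probes, one that crosses an exon junction at position 335 of the transcript spanned 1.61 on the log2 scale against 3.59 for the brightest, with an r of 0.949. In Mylk the probes at positions 5201, 5543 and 6677 of the RefSeq transcript spanned 2.56, 3.41 and 3.26 on the log2 scale. The Mylk probe designed to a cDNA clone in place of that transcript, whose first bases are shown above, spanned 0.459 with an r of 0.189, although its spot passed the background criterion on 13 of 13 arrays. At day 7 it spanned 0.738 against 2.08 for the brightest, with an r of 0.418. A further Mylk probe and a Des probe, both dim and, like the flat one, not designed to a RefSeq transcript, had r of -0.0368 and -0.216 at day 0. Other probes not designed to RefSeq transcripts did follow, with r of 0.916 in Acta2, 0.948 in Myh11 and 0.941 in Synpo2. Probes were chosen by brightness, so these 3 stayed out of the values of the 10 genes within a day. The flat Mylk probe did enter the comparison between days, and all 3 entered an alternative that averaged all probes of a gene, where the day 0 difference between labels of Des was -0.085 and that of Mylk -0.26.

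At day 0 the level of the genes was set beside the slide, and the 4 slides each held both genotypes. On slide 3 Myh11 was 13.82 to 14.60 in 4 arrays, on slide 4 it was 10.78 to 11.65 in 3, and on slide 2 it was 12.27 to 13.41 in 4. Slide 1 held 1 low array, GF Card9-/- replicate 7 at 12.23, and 1 high one, GF WT replicate 1 at 14.60. In all 10 genes the arrays of slide 3 lay above those of slide 4, without overlap, as they did in 10.3% of 47338 tested probes with a value on each of these arrays, and in a further 16.6% they lay below.

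In limma with genotype and slide as terms, 15 of 47410 probes passed an adjusted p of 0.05 between slides (0.0316%), and 0 of the 10 genes did. Their adjusted p ran from 0.208 (Cnn1 and Des) to 0.323 (Mylk). At an unadjusted p under 0.05, 10 of the 10 genes passed (from 0.00103 to 0.00632), against 10.9% of all probes. The 10 move together, so they are not 10 independent results. Without GF Card9-/- replicate 7, 5 of the 10 genes passed the adjusted threshold, and without GF WT replicate 1, which shared its slide, also 5, but those fits also called more of all probes, 0.541% and 0.567%, while the count was 0 without any other array. Between the scan sessions, each of 2 slides, the difference farthest from 0 was that of Lmod1 (-0.24, session 2 minus session 1, SE 0.696). The share of spots well above background was 57.8% to 60.4% on slide 3 and 51.8% to 56.7% on slide 4, and its part in the slide pattern was not tested. At day 7 the 8 arrays lay on 6 slides, 4 of them with 1 array, and slides were not tested against each other.

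None of the 10 genes passed the test between the arrays labelled GF Card9-/- and GF WT at day 0. All 10 differences were negative, from -0.62 (Acta2, SE 0.62, adjusted p in limma 0.912) to -0.19 (Lmod1, SE 0.67, adjusted p 0.987), with a median of -0.45 beside 0.015 over all tested probes. For Acta2 the 95% interval of the log2 difference ran from -1.97 to 0.74. At the adjusted threshold, 12 of 47410 probes were called (0.0253%) and 0 of the 10 genes, and at an unadjusted p under 0.05, 5.84% of probes and 0 of the 10. Two-sided exact permutation tests of single genes gave p from 0.357 to 0.782. The groups overlapped in 10 of 10 genes.

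Within slides the sign was not steady. All 10 genes were lower in GF Card9-/- on slide 1 (median -1.81, 1 array against 1) and slide 4 (median -0.51, 2 against 1), and all 10 were higher on slide 2 (median 0.31, 2 against 2) and slide 3 (median 0.34, 2 against 2). Within the scan sessions the medians were -0.42 and -0.46. Without slide 4 the median of the genes was -0.13, and it was -0.20 with slide as a block.

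At day 7, too, none of the 10 passed the test between labels. Of the 10 differences 9 were negative, from -0.72 (Myh11, SE 0.64, adjusted p in limma 0.913) to 0.018 (Lmod1, SE 0.65, adjusted p 1), with a median of -0.38 beside 0.0013 over all tested probes. The interval for Myh11 ran from -2.23 to 0.78, a wide interval that 8 arrays cannot narrow. Of 44643 probes 0 were called (0%), as were 0 of the 10 genes, and at an unadjusted p under 0.05 the shares were 3.38% of probes and 0 of the 10. The exact permutation p of single genes ran from 0.343 to 0.971. On the 2 slides that held both labels, all 10 genes were lower in GF Card9-/-, with medians of -0.82 and -1.88, but these are replicates 2 and 2.1 alone. Without replicate 2.1 of GF Card9-/- the median of the genes was 0.017, and with replicates 2 and 2.1 averaged it was -0.13. Without replicate 1 of GF WT, the array with Card9 at the level of the other label, it was -0.78, with all 10 genes lower in GF Card9-/- and none past the adjusted threshold (lowest adjusted p in limma 0.938, lowest unadjusted p 0.0779).

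**Figure D3:**
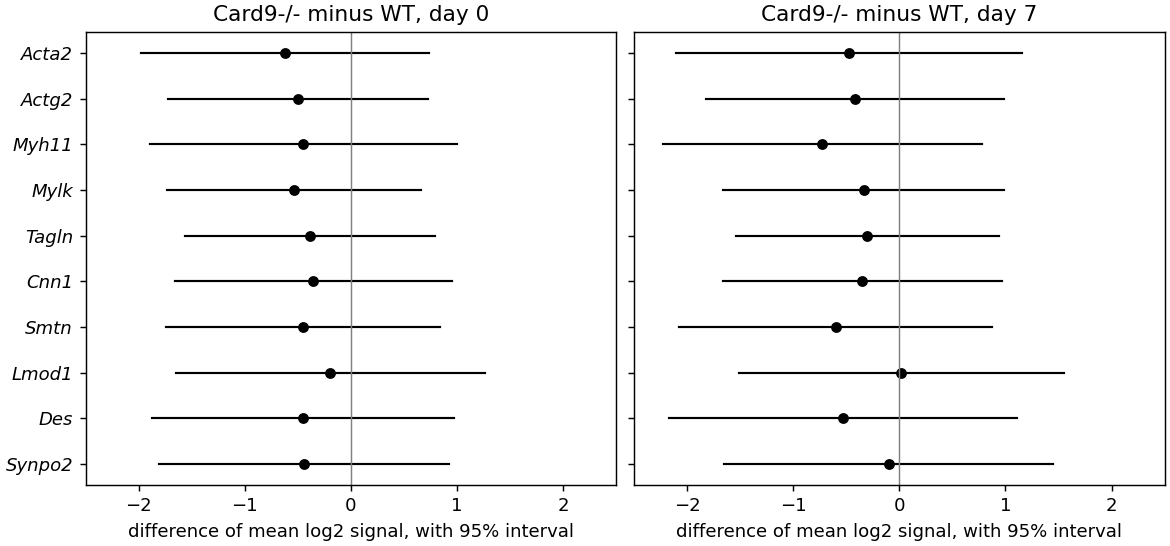
Points are the log2 difference of labelled Card9-/- minus labelled WT for each gene at day 0 (left, 7 against 6 arrays) and day 7 (right, 4 against 4), with limma's 95% interval as a line and a grey line at 0. Every interval crosses 0, and at day 0 all 10 points lie to the left of it.

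With the mean of the other 9 genes subtracted, the differences between labels are given as values only. At day 0 Acta2 was -0.20 (from -0.24 to 0.051 in GF Card9-/- and from 0.0023 to 0.32 in GF WT) and Lmod1 0.27. At day 7 Myh11 was -0.38, Smtn -0.24, Synpo2 0.31 and Lmod1 0.45. Single arrays moved them: Myh11 was -0.19 and Synpo2 0.15 without GF WT replicate 5, Myh11 was -0.24 without GF Card9-/- replicate 4, and Lmod1 was 0.30 without GF WT replicate 1, the array whose label is in doubt. For Lmod1 the values ran from -0.0039 to 0.56 in GF Card9-/- and from -0.67 to 0.084 in GF WT. The ranges of both labels overlapped for each of these genes.

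The difference between labels was also compared between days, in 1 limma fit of the 4 groups over 23633 probes found on both designs. It could be made for 9 of the 10 genes, since no Actg2 probe was shared. None passed: the change ran from -0.18 (Myh11) to 0.34 (Synpo2, SE 0.98), with adjusted p from 0.967 to 1. For Mylk the only shared probe was the one that did not follow the other genes. Of all probes 0 passed (0%), and 7.14% had an unadjusted p under 0.05, against 0 of the 9 genes. Without GF WT replicate 1 of day 7 the count of genes past the adjusted threshold was also 0.

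Other genes of smooth muscle contraction followed. Of 52 listed ones, all measured on both days, 35 had an r above 0.9 with the mean of the 10 genes at day 0 (median 0.937) and 21 at day 7 (median 0.828), against 2.29% and 1.73% of all tested probes, whose median r was -0.188 and -0.0563. By role, at day 0, this held for 8 of 10 genes of the thin filament and myosin light chain, 14 of 17 of intermediate filaments, costameres and Z-lines, 7 of 10 of calcium handling, channels and receptors, 3 of 6 of transcriptional control and 3 of 9 of the enzymes that set myosin phosphorylation. At day 7 the counts were 4, 12, 1, 2 and 2. Some of the genes were read by another probe at day 7. That of Cacna1c was well above background on 0 of 8 arrays and that of Casq2 on 5, and the difference in counts between days was not tested. Among the exceptions at day 0 were genes used in most cell types, such as Rhoa, a small GTPase (r -0.808), Tagln2, a transgelin of non-muscle cells (0.0091), and Mrtfa and Mrtfb, cofactors of serum response factor (-0.167 and 0.214). The exceptions were not confined to such genes: Ldb3 had 0.14, Chrm3 0.277, Itpr1 0.601, Fhl1 0.628 and Mef2c 0.697. Myocd, which encodes myocardin itself, had 0.993 at day 0 and 0.967 at day 7.

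**Figure D4:**
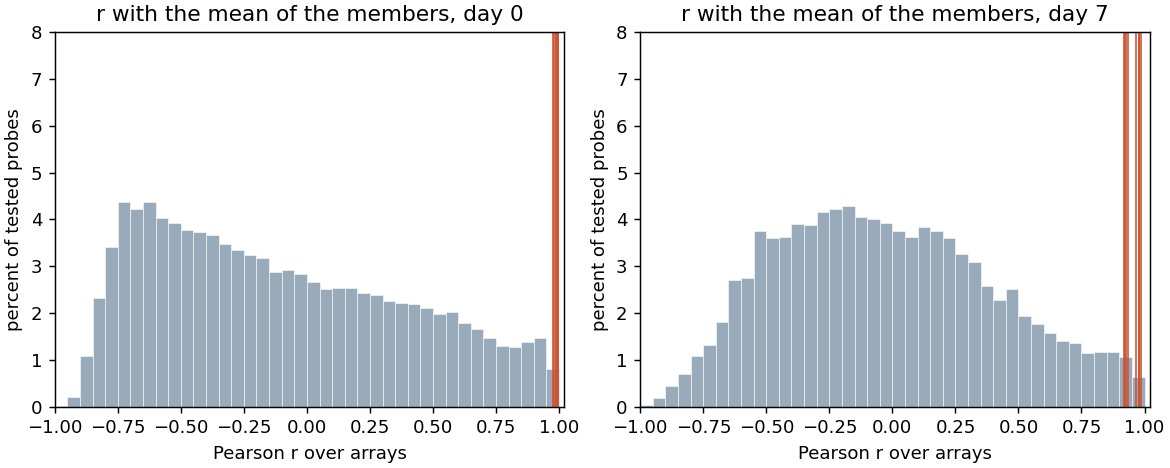
Grey bars give the percentage of tested probes (vertical axis) by their Pearson r with the mean of the 10 genes over arrays (horizontal axis), and orange lines give each of the 10 genes' r with the mean of the other 9, at day 0 (left) and day 7 (right). The orange lines lie between 0.977 and 0.998 at day 0 and between 0.920 and 0.986 at day 7, at the right edge of the bars.

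None of the 52 passed the adjusted threshold between labels on either day, where 0.0253% and 0% of probes did. At day 0 46 were lower in GF Card9-/- (median difference -0.34) and at day 7 39 (median -0.26). The genes named here are the 2 farthest from 0 in each direction of each role, as log2 difference ± SE, with adjusted p of 0.912 or more. At an unadjusted p under 0.05, 1 of the 52 passed at day 0, beside 5.84% of all probes, and 0 at day 7, beside 3.38%. The 1 was Fhl1, a LIM-domain protein, at -0.35 ± 0.16 (unadjusted p in limma 0.0448, adjusted 0.839), which is named because the count is 1 and was chosen after its value was seen.

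At day 0 the receptors Ednra (endothelin, -0.79 ± 0.64) and Chrm2 (muscarinic, -0.76 ± 0.67) were lowest among genes of calcium handling and receptors, against 0.36 ± 0.22 for Chrm3, another muscarinic receptor, and 0.019 ± 0.072 for the calcium pump Atp2a2. Among transcription factors and cofactors, Foxf1 was -0.78 ± 0.59 and Myocd -0.58 ± 0.57, against 0.0042 ± 0.076 for Mrtfb. Among filament and costamere genes, Tgfb1i1 was -0.68 ± 0.62 and Pdlim3 -0.57 ± 0.68. Prkg1, the cGMP-dependent kinase, was -0.64 ± 0.59 and Ppp1r14a, a myosin phosphatase inhibitor, -0.42 ± 0.45, against 0.048 ± 0.054 for Rhoa and 0.029 ± 0.17 for Dapk3. In the thin filament group Myl9 was -0.50 ± 0.57 and Flna, filamin A, -0.49 ± 0.60, and none was higher. None of these passed the test.

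At day 7 Chrm2 was -0.88 ± 0.66 and Casq2, calsequestrin, -0.82 ± 0.69, against 1.17 ± 0.73 for Chrm3 and 0.83 ± 1.13 for Pln, phospholamban. Srf, serum response factor, was -0.45 ± 0.23 and Myocd -0.37 ± 0.60, against 0.71 ± 0.69 for Mef2c and 0.074 ± 0.11 for Mrtfa. Actn1 was -0.64 ± 0.40 and Tpm2 -0.52 ± 0.65, against 0.18 ± 0.24 for Tagln2 and 0.051 ± 0.15 for Myl6. Each of these groups held members on both sides of 0. Itga8 was -0.56 ± 0.65 and Tgfb1i1 -0.52 ± 0.54, against 0.39 ± 0.41 for Ldb3 and 0.26 ± 0.25 for Itga7. Mrvi1 was -0.41 ± 0.55 and Prkg1 -0.40 ± 0.67, against 0.13 ± 0.12 for Rhoa and 0.035 ± 0.10 for the kinase Rock2. Some of these values rest partly on dim signal. The probes of Casq2, Chrm3 and Mef2c were well above background on 5 of 8 arrays, that of Itga8 on 6 and those of Pln and Prkg1 on 7.

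The genes most like the 10, among those well above background on every array and with 1 probe taken per gene, are given by their r. The 10 highest r over the 13 arrays of day 0 ran from 0.998 to 0.994 and belonged to Actc1 (an actin first known from the heart), Tpm2 (a tropomyosin), Speg, Pdlim3, Popdc2, Synm (an intermediate filament protein), Myl9 (the regulatory light chain), Dmpk, Cald1 (caldesmon) and Smarcd3. At day 7, 9 of the 10 highest over 8 arrays ran from 0.995 to 0.990 and belonged to Fermt2 (a kindlin of integrin adhesions), Nxn, Pdlim3, Rgs1, Pcbp3, Astn1, Flna, Pdzd4 and Tpm2. The lowest 5 were Immp2l, Zfp870, Cycs (cytochrome c), Slc66a1 and Krtcap3 at day 0, from -0.957 to -0.951, and Ifrd1, Raph1, Tmc6, Tchh and Il27 at day 7, from -0.994 to -0.953. From the lowest array to the highest, these 10 genes spanned from 0.504 (Krtcap3) to 1.16 (Tchh) on the log2 scale.

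Many other transcripts went with the 10 genes at day 0. With genotype and the mean level of the 10 as terms in limma, 8145 of 47400 other probes (17.2%) passed an adjusted p of 0.05 for that level, 3828 rising with it and 4317 falling. At day 7, 619 of 44633 did (1.39%), 586 rising and 33 falling. With the level of the 10 in the fit, the count of probes called between labels was 13 at day 0 in place of 12, with 10 in both, and 0 at day 7 in place of 0.

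Which other cells of the wall varied with muscle was asked by setting Myh11 against 13 single genes used as markers of other cell types, on each day, with p adjusted over all 26 relations. At day 0, 8 of the 13 passed, all positive, and at day 7, 5 did, also all positive. By rank correlation the counts were 8 and 1. The permutations took the arrays as exchangeable across slides, although Myh11 on slide 3 lay above slide 4 at day 0. Their p-values thus make no allowance for slide.

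Ckm, the muscle creatine kinase, stood for striated muscle, but other genes of that list went the other way or were not well above background, as given with the lists below. It had an r of 0.953 with Myh11 over 13 arrays and a rho of 0.962 (permutation p 1e-05 for each, the smallest that 100000 permutations can give, adjusted 8.67e-05), and an r of 0.930 without the 2 arrays farthest from the median of Myh11. Rgs5, a gene of pericytes, had 0.953 and 0.967 (permutation p 1e-05, adjusted 8.67e-05, r 0.929 without the 2). Both also had an r of at least 0.905 within each scan session. At day 7, over 8 arrays, the exact permutation tests of r gave an adjusted p of 0.0184 for Ckm (r 0.813) and Rgs5 (r 0.818), with r of 0.939 and 0.966 without the 2 farthest arrays. By rank neither passed there (rho 0.690 and 0.810, adjusted exact permutation p 0.129 and 0.0515).

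Col1a1, a collagen of fibroblasts, had an r of 0.894 at day 0 (permutation p 5e-05, adjusted 0.000325, rho 0.824, adjusted 0.00432) and 0.801 at day 7 (exact permutation p 0.0113, adjusted 0.024, rho 0.810, adjusted 0.0515), the latter 0.562 without the 2 farthest arrays. Uchl1, of enteric neurons, had 0.794 (permutation p 0.00016, adjusted 0.000832, rho 0.850, adjusted 0.00325) and 0.841 (exact permutation p 0.012, adjusted 0.024, rho 0.929, adjusted 0.00828). By rank, of these only Uchl1 passed at day 7. The enteric neuron list was not uniform in its r with the mean of the contractile genes. Of its 9 genes, 7 had a positive r at day 0 and 8 at day 7. The exceptions were Chat (-0.0282) and Nos1 (-0.00195) at day 0 and Snap25 (-0.732) at day 7. On the other day Chat had 0.463, Nos1 0.898 and Snap25 0.61. Kit, of the interstitial cells of Cajal that pace the muscle, had 0.839 at day 0 (permutation p 5e-04, adjusted 0.00217, rho 0.819, adjusted 0.0049), with 0.583 and 0.957 within the scan sessions. At day 7 Kit had 0.269 (exact permutation p 0.529, adjusted 0.652), and 0.861 without the 2 farthest arrays. Of the same list, with the mean of the 10 genes, Ano1 had only 0.235 at day 0 and 0.0989 at day 7, and Etv1 0.958 and 0.981. Pecam1, of endothelium, had 0.818 at day 0 (permutation p 0.00074, adjusted 0.00275, rho 0.775, adjusted 0.0089) and 0.717 at day 7 (exact permutation p 0.0519, adjusted 0.0843), the latter 0.0648 without the 2. Of the endothelium list at day 7, with the mean of the 10 genes, Kdr had -0.157 and Cdh5 0.774. The difference between the days was not tested.

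Muc2, the mucin of goblet cells, had 0.704 at day 0 over the 12 arrays with a value (permutation p 0.00255, adjusted 0.00829, rho 0.748, adjusted 0.0204). It moved with the arrays and the scaling used: r was 0.443 without the 2 farthest arrays, 0.202 with each array scaled on its 75th percentile, and 0.0485 within GF WT, but 0.871 within GF Card9-/- and 0.830 and 0.743 within the scan sessions. Epcam, of epithelium, had -0.361 at day 0 and -0.180 at day 7, with adjusted permutation p of 0.349 and 0.724, and -0.593 and -0.543 with scaling on the 75th percentile. Car1, of colonocytes, had -0.270 and -0.244, Ptprc, of leukocytes, 0.603 and 0.164, and Adipoq, of adipocytes, 0.214 and -0.455, none past the adjusted threshold. The leukocyte list was mixed: with the mean of the 10 genes, at day 0, Adgre1 of macrophages had 0.868 and Itgam of myeloid cells 0.635, but Cd3e of T cells -0.686 and Cd79a of B cells -0.363, and at day 7 Itgam had -0.609 and Adgre1 0.689. At day 7 Muc2 had -0.0462, and Muc2 and Adipoq had 0.887 and 0.852 without the 2 farthest arrays. At day 0 Adipoq had a rho of -0.132. Its r there was -0.509 without the 2 farthest arrays and -0.682 within GF WT, but 0.451 within GF Card9-/-. Upk3b, of mesothelium, had -0.557 and -0.218 (adjusted permutation p 0.0843 and 0.677).

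**Figure D5:**
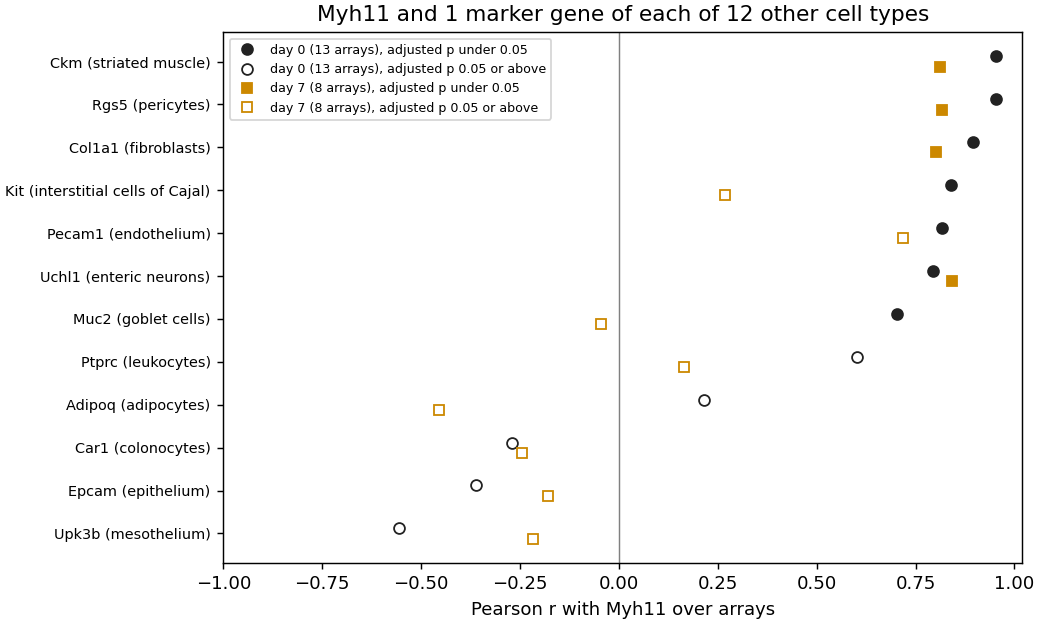
Pearson's r with Myh11 over arrays (horizontal axis) for 12 of the 13 marker genes, each of another cell type, with black circles for day 0, yellow squares for day 7, and filled symbols where the adjusted permutation p was under 0.05. The filled symbols all lie at 0.704 or above, and Epcam, Car1 and Upk3b lie below 0 on both days.

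The whole marker lists were set against the 10 genes as well. At day 0 the mean of the centred list genes correlated with that of the 10 genes at 0.957 for pericytes and vascular mural cells (4 genes), 0.935 for striated muscle (10), 0.921 for fibroblasts (6), 0.835 for interstitial cells of Cajal (3), 0.820 for endothelium (3) and 0.781 for enteric neurons (9). It was 0.355 for leukocytes (5), 0.221 for adipocytes (6), -0.112 for epithelium (10), -0.158 for pancreas acinar cells (8) and -0.561 for mesothelium (5). By rank, however, every adipocyte gene had a negative rho with the 10 genes, from -0.22 (Cfd) to -0.0358 (Fabp4). Of the striated list, Acta1 and Ckm had 0.945 and 0.952 with the 10 genes, while the fast myosin Myh4, Mylpf and Pvalb, defining genes of fast striated fibres, had -0.521, -0.645 and -0.638. Myh1 was well above background on 0 of 13 arrays and Mb on 1. At day 7 the lists ranged from 0.929 for enteric neurons and 0.914 for pericytes and mural cells through 0.892 for striated muscle (6 genes tested), 0.854 for fibroblasts, 0.704 for interstitial cells and 0.685 for endothelium to -0.0071 for leukocytes, -0.176 for the pancreas, -0.228 for adipocytes, -0.234 for mesothelium and -0.399 for epithelium. Their part in the level of the 10 genes was not tested.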

How the data were processed

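Colon RNA of 21 arrays was analysed. Spot intensities were deposited as the authors' scanner output from Agilent Feature Extraction (version 10.7.3.1, per the submitters' processing notes), with a detection p-value per spot deposited beside them. The authors also deposited a normalized log2 table per day, used only as an alternative. The methods name quantile normalization, a detection filter and limma. Here log2 of the processed signal was quantile normalized within a day (R 4.3.3, limma 3.58.1), control and outlier spots were left out, and spots of a probe averaged. Probes detected (p under 0.05) in 60% of the arrays of a genotype were tested, 47410 at day 0 and 44643 at day 7, with Benjamini-Hochberg adjustment at 0.05. Fits were tested on simulated data. Probe names came from RefSeq through the files' accessions, otherwise from the files. Positions are those of the files (mm9). The genes and lists were chosen with earlier results of these data known. All 10 genes are named, and of the 52 others, those past a threshold or else the 2 farthest from 0 in each direction of each role. The genes most like the 10 are the 10 highest and 5 lowest r. P-values measure the spread between arrays, which may be partly technical. Alternatives covered scaling, background, filters, slide, session, replicate number and each array left out. The level of the 10 genes as a covariate, and each array left out of the differences after subtraction of the other genes, were added after seeing the data. Single genes among those that the rule names, and 1 marker with its list, are not reported here.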

Additional observations from a re-analysis of the deposited data

Results flagged for a closer look

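At day 7 GF WT replicate 1 stood apart from the other 3 arrays of its group in 3 genes, by a gap that exceeded Dixon's 95% limit for a group of 4. Its log2 signal was 15.28 for Cnn1, 4.78 for Lmod1, where the probe was not well above background, and 9.50 for Synpo2. Of 40 groups examined (10 genes, 2 genotypes, 2 days) 3 had such a gap, and chance gives about 1 in 20. The 3 share 1 array, on which all 10 genes lay below their means and 40.2% of spots were well above background, the lowest share of the day. It is also the array labelled GF WT on which Card9 was at 7.85, near the arrays labelled GF Card9-/-. The part of either in the low values was not tested.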

How the results depend on the processing

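The count of the 10 genes called between labels stayed at 0 under every alternative run on either day. Their median at day 0 stayed negative, from -0.76 to -0.12 when each array was left out in turn, and at day 7 ran from -0.78 to 0.017, and was -1.34 with slide as a fixed block (lowest unadjusted p of a gene 0.0252), -0.13 with replicates 2 and 2.1 averaged and 0.096 with the replicate block. The cause was not tested. Probes called between labels at day 0 numbered 27 with normexp, 22 in the authors' table, 22 with the filter on probes well above background, 7 with the replicate block, 26 with array weights, 555 at an unadjusted p under 0.05 and a fold of 1.5, and 8 to 16 with an array left out. At day 7 they numbered 987 at that fold and 0 to 1 with an array left out. Between slides, they numbered 9 with the 75th percentile and with normexp, 6 in the authors' table, 34 with no filter, 23 between sessions and 7 to 277 with an array left out, and the 10 genes 0 to 5. The change in genotype difference between days gave 0 to 2 probes with an array left out. Signs that turned were all of values within their error. At day 0, Lmod1 was 0.074 with slide as a block and 0.13 without slide 4, Synpo2 0.054 without slide 4, and with an array left out Lmod1 ran from -0.54 to 0.14. At day 7, Lmod1 was -0.00097 with the 75th percentile, -0.058 with normexp, -0.064 in the authors' table, -1.11 with slide as a fixed and -0.059 as a random block and -0.19 with array weights, and Synpo2 was 0.17 with replicates 2 and 2.1 averaged. With the replicate block (numbers 4 and 6, 4 arrays) Acta2 was 0.098, Actg2 0.093, Mylk 0.14, Tagln 0.18, Cnn1 0.052 and Synpo2 0.15. With an array left out, Acta2 ran from -0.98 to 0.012, Actg2 from -0.82 to 0.021, Mylk from -0.74 to 0.0083, Tagln from -0.64 to 0.11, Cnn1 from -0.73 to 0.051, Lmod1 from -0.58 to 0.31 and Synpo2 from -0.63 to 0.26. Arrays sharing a replicate number correlated at -0.0217 to 0.375 (6 pairs) at day 0 and 0.0288 to 0.11 (2 pairs) at day 7, so the numbers were not taken to pair them. The number of arrays limits all of these, and at low signal Lmod1 was not well above background on 2 arrays of day 0 and 1 of day 7.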
